A study of Mus musculus with 6 samples.

Results

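Annexins are cytoplasmic proteins that bind membranes in the presence of calcium, and 9 annexin genes were followed here in embryonic stem cells of the mouse, which are grown from the early embryo and can form all of its tissues. They were taken from a list of gene symbols (Anxa1 to Anxa8 and Anxa11) matched to the Ensembl identifiers of the files through the GENCODE M21 annotation. All 9 were found among 52870 rows with an identifier, of which 13579 were tested, and all 9 had at least 1 FPKM in each of the 6 libraries. FPKM is the number of sequenced fragments of a transcript, scaled to its length in kilobases and to the depth of the library. The members were chosen by symbol with the FPKM values of these groups and their differences in view, so the levels of the members in the 2 groups are given as a description without a test.

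RNA was sequenced from Rbbp4F/F cells, the control (3 libraries), and from Rbbp4-/- cells, titled Rbbp4KO and called the knockout here (3 libraries). All of the cells were of strain C57BL/6. Rbbp4 encodes a histone-binding subunit shared by several chromatin complexes, among them NuRD, Sin3 and Polycomb repressive complex 2. The labels name no deleting agent, no time after deletion, no number of cell lines and no feeder cells. Nor do they state whether replicates are separate cultures, and a p-value then reflects library-to-library spread that may be technical.

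Each annexin joins a conserved core of repeats, which holds calcium and rests on negatively charged phospholipids such as phosphatidylserine, to an amino-terminal tail that differs between members and binds other proteins. Annexins link membranes to each other and to the actin cortex, take part in endocytosis, exocytosis and the resealing of torn plasma membrane, and are often bound to small calcium-binding proteins of the S100 and penta-EF-hand families.

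The targeted transcript separated the groups, and the knockout libraries were not alike. Rbbp4 had 58.5, 57.0 and 61.8 FPKM in control replicates 1 to 3 and 21.3, 12.7 and 11.1 FPKM in knockout replicates 1 to 3, so that knockout replicate 1 kept the most. Depth, estimated from the steps between low values, was 25500000 to 28900000 fragments per library, at which 1 fragment on 3 kb is worth 0.0115 to 0.0131 FPKM. All 10 embryonic stem cell markers looked at had at least 1 FPKM in every library, with summed levels of 4913 to 5033 FPKM (control) and 1586 to 2403 FPKM (knockout). The largest parts of the sum were Dppa5a (means of 2191 and 786 FPKM) and Pou5f1 (1113 and 378 FPKM). Of the 10, 7 were lower without overlap (beside 25.5% of all tested genes) and 1, Sall4, was higher without overlap (69.5 and 85.5 FPKM, beside 41.3%). Lin28a (116 and 122 FPKM) and Zfp42 (35.1 and 31.9 FPKM) overlapped. Of 10 fibroblast markers, which would show feeder cells, 1 (Thy1) reached 1 FPKM and Fap was listed at 0 in all libraries. Thy1 was lower in the knockout, at 11.7, 18.0 and 14.7 FPKM (control) and 8.01, 7.26 and 7.76 FPKM (knockout). The other fibroblast markers, each below 1 FPKM, summed to 1.04 to 1.31 FPKM (control) and 2.46 to 3.08 FPKM (knockout). Of 10 trophoblast markers, 5 had at least 1 FPKM in every control library and 8 in every knockout library, with sums of 35.0 to 44.6 and of 105 to 191 FPKM, while Tpbpa and Prl3d1 were listed at 0 throughout. Most of the added trophoblast sum was Hand1 (means of 6.84 and 68.1 FPKM) and Krt7 (2.93 and 42.9 FPKM). Eomes did not differ (2.90 and 2.88 FPKM), and Cdx2 reached a knockout mean of only 1.52 FPKM. The 10 primitive endoderm markers summed to 7.97 to 8.95 FPKM (control) and 27.3 to 32.6 FPKM (knockout), with Ttr listed at 0. Most of the added sum was Lrp2 (means of 2.27 and 18.2 FPKM), while Amn was not higher (3.04 and 2.63 FPKM). The 8 macrophage markers summed to 40.9 to 42.3 and 77.5 to 85.0 FPKM, almost all of it Cd68, and the pan-leukocyte gene Ptprc stayed at or below 0.34 FPKM. The stem cell sum was thus lower in the knockout, and the trophoblast, primitive endoderm and macrophage sums were higher. The annexin levels below differ between the same groups, and the part of these cell types in them was not tested. In RNA from whole cultures, a larger share of cells of a type and more RNA per cell cannot be told apart.

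The annexins did not move as a block. In the knockout libraries Anxa1, Anxa2, Anxa3, Anxa5 and Anxa7 were higher than in every control library, Anxa8 and Anxa11 were lower than in every control library, and Anxa4 and Anxa6 overlapped. These 7 members without overlap stand beside 66.8% of all tested genes, the 5 higher ones beside 41.3% and the 2 lower ones beside 25.5%. As the members were listed with this contrast known, nothing is read from their number. The median log2 difference of the 9 members, on log2(FPKM + 1) and as knockout minus control, was 0.59, beside 0.17 for all tested genes.

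**Figure D1:**
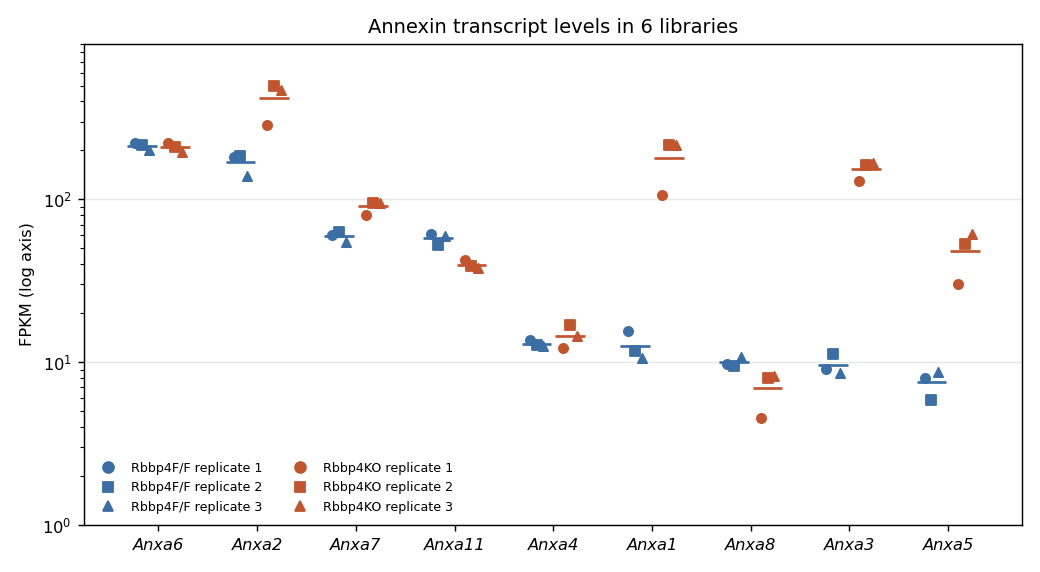
FPKM of the 9 annexin genes (log axis) in 3 control (blue) and 3 knockout (orange) libraries, with symbols for the replicate number and bars at the group means, ordered by the control mean. Anxa1, Anxa3 and Anxa5 lie among the lowest members in the controls, below 16 FPKM, and between 30.2 and 216 FPKM in the knockout libraries, while Anxa6 keeps the same level.

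Anxa1 encodes annexin A1, a ligand of formyl peptide receptors with an anti-inflammatory role and a binding partner of S100a11. The gene (ENSMUSG00000024659) lies on GRCm38 chromosome 19, 20373428 to 20390944, minus strand, in 15 exonic blocks. Control replicates 1 to 3 had 15.6, 11.7 and 10.6 FPKM of Anxa1, against 106.8, 216 and 216 FPKM in the knockout replicates in the same order, the order used throughout. All knockout values lay far above the controls, with replicate 1 lower than the other two. The mean was 12.6 ± 2.59 FPKM (SD, n = 3) in the controls and 179 ± 62.9 FPKM (SD, n = 3) in the knockout, a ratio of 14.2 and a log2 difference of 3.67 (SE 0.29). Only 21 of the 13579 tested genes had a larger difference.

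Promoter windows from RefSeq (GRCm38.p6, 250 bases before to 50 after a start site) were given for 7 of the 9 members, in 9 windows, and stretches of 4 of them (Anxa1, Anxa2, Anxa5 and Anxa11) are shown, from higher and lower members whose windows differ in motif content. Anxa3 and Anxa6 had none. Both strands were searched for the TATA box written as TATAAA, the GC box written as GGGCGG, the CCAAT box by its name, the AP-1 site written as TGANTCA, the TEAD site written as CATTCC and the cyclic AMP response element written as TGACGTCA. None of these holds another. CCAAT letters occur in 37.4% and the response element in 1.79% of all windows, and in no window of a member. The window of Anxa1 had a GC content of 47.3% and 3 CpG, beside medians of 52.7% and 7 over all windows. It held TATAAA from 32 bases before the start site, as 13.6% of all 32851 windows do, and CATTCC from 236 bases before it, as 14.7% do. Both stretches, 20390686 to 20390715 and 20390890 to 20390919 on the minus strand of chromosome 19, lie in exons that GENCODE annotates for a longer transcript, and so 30 bases of each are shown, with the motif in capitals.
Anxa1 TEAD match: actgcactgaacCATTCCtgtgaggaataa
Anxa1 TATA box match: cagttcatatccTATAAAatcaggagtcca

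Anxa3 encodes annexin A3, an inhibitor of phospholipase A2 in early biochemical work. The gene (ENSMUSG00000029484) lies on chromosome 5, 96793339 to 96845966, plus strand, in 15 exonic blocks. Its control level was 9.03, 11.2 and 8.60 FPKM, and its knockout level 130.1, 162 and 166 FPKM. This was the largest ratio in the family, and the knockout libraries stood closer together than for Anxa1. The means were 9.61 ± 1.39 and 152.7 ± 19.7 FPKM (SD, n = 3 each), a ratio of 15.9 and a log2 difference of 3.86 (SE 0.13), with 16 tested genes above it. Exons of Gm42603 on the same strand cover 3.07% of the exonic length of Anxa3, and reads there cannot be told apart.

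Anxa5 encodes annexin A5, which assembles into a lattice on exposed phosphatidylserine and is used as a stain for dying cells. The gene (ENSMUSG00000027712) lies on chromosome 3, 36448923 to 36475894, minus strand, in 13 exonic blocks. It was the lowest of the 9 members in the controls, at 7.98, 5.88 and 8.66 FPKM, whereas the knockout level was 30.2, 52.9 and 61.2 FPKM. The lowest knockout value, in replicate 1, was still well above the highest control. The means were 7.51 ± 1.45 and 48.1 ± 16.0 FPKM (SD, n = 3 each), a ratio of 6.41 and a log2 difference of 2.49 (SE 0.27). Its promoter window had a GC content of 60.3% and 16 CpG, and none of the letters searched. The stretch outside annotated exons, chr3:36475895-36476137 on the minus strand, is shown as the example without a match.
Anxa5 upstream: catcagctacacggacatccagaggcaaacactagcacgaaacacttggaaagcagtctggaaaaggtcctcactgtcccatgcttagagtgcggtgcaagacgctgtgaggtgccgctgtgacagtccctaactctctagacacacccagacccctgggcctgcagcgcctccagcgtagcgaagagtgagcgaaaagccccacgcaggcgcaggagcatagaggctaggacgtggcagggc

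Anxa2 encodes annexin A2, which pairs with S100a10 into a complex at the plasma membrane that binds actin, plasminogen and tissue plasminogen activator. The gene (ENSMUSG00000032231) lies on chromosome 9, 69453620 to 69491795, plus strand, in 15 exonic blocks. It was already abundant in the controls, at 182.7, 184.8 and 139.8 FPKM, and reached 284.5, 496 and 471 FPKM in the knockout. Knockout replicate 1 lay between the controls and the other two knockout libraries. The means were 169 ± 25.4 and 417 ± 115.6 FPKM (SD, n = 3 each), a ratio of 2.47 and a log2 difference of 1.27 (SE 0.23). Antisense exons of Gm16144 cover 2.63% of its exonic length. Its promoter window had 63.7% GC and 13 CpG, with TGAGTCA, a form of the AP-1 letters, from 95 bases before the start site. AP-1 letters stood in 7.81% of all windows and in no window of another member. GGGCGG, present in 35.7% of all windows, began 190, 48 and 24 bases before the start site, and TATAAA began 17 bases before it. The stretch outside annotated exons, chr9:69453433-69453619 on the plus strand, carries the first GC box and the AP-1 letters in capitals.
Anxa2 upstream: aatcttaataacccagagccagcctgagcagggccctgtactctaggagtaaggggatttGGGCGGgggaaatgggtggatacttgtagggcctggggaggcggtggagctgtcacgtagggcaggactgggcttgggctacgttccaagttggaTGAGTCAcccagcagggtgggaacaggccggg

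Anxa7 encodes annexin A7, also called synexin, which promotes fusion of secretory granules and binds sorcin. Its locus (ENSMUSG00000021814) is on chromosome 14, 20455260 to 20480133, minus strand, in 13 exonic blocks. The controls held 60.1, 63.4 and 55.0 FPKM of Anxa7 and the knockout 80.1, 95.5 and 95.5 FPKM, without overlap. The means were 59.5 ± 4.22 and 90.4 ± 8.91 FPKM (SD, n = 3 each), a ratio of 1.52 and a log2 difference of 0.59 (SE 0.10), the smallest among the 5 higher members. When libraries were rescaled by median ratio or by upper quartile, the difference became 0.37 or 0.33.

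Anxa6 and Anxa4 had much the same level in both groups. Anxa6, whose protein holds the annexin core in duplicate and acts in late endosomes and cholesterol transport, lies (ENSMUSG00000018340) on chromosome 11, 54979108 to 55033445, minus strand, in 26 exonic blocks. It was the most abundant annexin in the controls at 221, 216 and 200.1 FPKM, with 222, 210.4 and 195 FPKM in the knockout. The groups overlapped, with means of 212 ± 10.9 and 209 ± 13.3 FPKM (SD, n = 3 each) and a log2 difference of −0.02 (SE 0.08). The sign depended on the scaling, at −0.25 with median-ratio and −0.29 with upper-quartile scaling, both without overlap, and at 0.14 with each library set to an equal FPKM sum. Anxa4, a calcium-dependent membrane binder of epithelial cells, lies (ENSMUSG00000029994) on chromosome 6, 86736840 to 86793584, minus strand, in 15 exonic blocks. Its level was 13.6, 12.8 and 12.5 FPKM in control cells and 12.2, 16.9 and 14.5 FPKM in knockout cells, so that replicate 1 lay below all controls and the others above them. The log2 difference of Anxa4 was 0.14 (SE 0.13), and it was −0.07 with median-ratio and −0.11 with upper-quartile scaling. Without knockout replicate 1 its groups no longer overlapped.

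Anxa11 and Anxa8 were the members with lower levels in the knockout. Anxa11 encodes an annexin with a long amino-terminal tail that binds the penta-EF-hand protein Pdcd6 and S100a6, and that tethers RNA granules to lysosomes. Its locus (ENSMUSG00000021866) is on chromosome 14, 25842156 to 25886804, plus strand, in 13 exonic blocks, and antisense exons of Anxa11os cover 2.73% of its exonic length. The level of Anxa11 was 61.5, 52.4 and 59.2 FPKM in control cells, against 42.7, 38.8 and 37.7 FPKM in knockout cells. Every knockout value lay below every control. The means were 57.7 ± 4.72 and 39.7 ± 2.62 FPKM (SD, n = 3 each), 1.45 times lower, with a log2 difference of −0.53 (SE 0.09). It ranged from −0.79 (upper quartile) to −0.37 (equal FPKM sums) over the scalings.

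The promoter window of Anxa11 had 59.7% GC and 25 CpG, the most CpG of the 9 windows. It held CCGCCC, the GC box on the other strand, from 53, 34 and 15 bases before the start site, and no TATAAA. GC box letters also stood in windows of Anxa2, Anxa4 and Anxa7, and the second window of Anxa7, a higher member, held 4 copies and no TATAAA. The window of Anxa8, the other lower member, held none of the letters searched. A link between these letters and the direction of a member was not tested. The 250 bases before the start site of Anxa11, chr14:25841905-25842154 on the plus strand, show its 3 copies in capitals.
Anxa11 upstream: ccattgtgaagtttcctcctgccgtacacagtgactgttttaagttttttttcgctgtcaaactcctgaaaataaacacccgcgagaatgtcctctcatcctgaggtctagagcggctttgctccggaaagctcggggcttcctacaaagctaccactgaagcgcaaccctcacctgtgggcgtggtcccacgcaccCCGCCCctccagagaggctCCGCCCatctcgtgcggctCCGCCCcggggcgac

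Anxa8 encodes annexin A8, a low-abundance member known from stratified epithelia and late endosomes. Its locus (ENSMUSG00000021950) is on chromosome 14, 34085981 to 34100571, plus strand, in 12 exonic blocks. The controls held 9.80, 9.41 and 10.8 FPKM of Anxa8, and the knockout 4.51, 8.04 and 8.21 FPKM. Knockout replicate 1 was the lowest, and the other two lay closer to the controls. The means were 9.99 ± 0.70 and 6.92 ± 2.09 FPKM (SD, n = 3 each), with a log2 difference of −0.51 (SE 0.21). Without knockout replicate 1 the difference of Anxa8 was −0.27, and with equal FPKM sums its groups overlapped. Anxa7, Anxa8 and Anxa11 share chromosome 14, where Anxa7 was higher and the other two were lower.

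The differences of the other members in single knockout libraries can be set beside each other. Relative to the mean of the controls on the log2 scale, knockout replicate 1 had 91.6% of the difference seen in replicates 2 and 3 for Anxa3, 74.9% for Anxa1, 68.0% for Anxa5, 62.8% for Anxa7 and 49.9% for Anxa2. For Anxa11 it had 73.3%. Over the 3165 tested genes with an absolute difference of at least 1 in replicates 2 and 3 the median was 81.6%. Anxa7 (0.68) and Anxa11 (−0.58) lie below that cut. Picking genes by a large difference in replicates 2 and 3 can itself lower the share of replicate 1. Knockout replicate 1 also held the most Rbbp4 transcript and the lowest trophoblast marker sum of the knockout libraries, and the part of either in these values was not tested. Control replicate 3 was the lowest control for 6 of the 9 members.

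**Figure D2:**
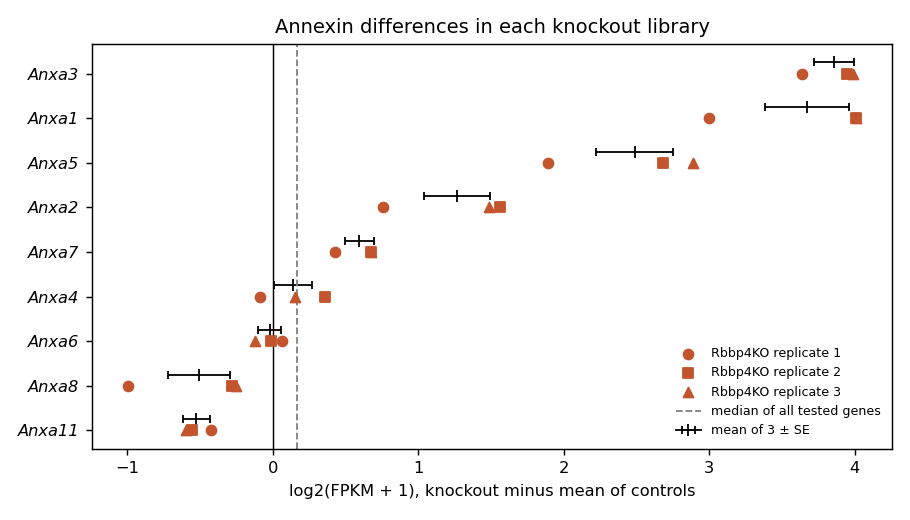
Difference of log2(FPKM + 1) between each knockout library and the mean of the 3 controls for the 9 annexins (symbols), with the mean of the 3 ± SE (black) and the median of all tested genes, 0.17 (dashed). Knockout replicate 1 lies nearer to 0 than replicates 2 and 3 for all 5 higher members and for Anxa11, and farthest from 0 for Anxa8.

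The sum over the family and its makeup differed between the groups. The 9 members summed to 581, 567 and 505 FPKM in control cells, against 913, 1296 and 1265 FPKM in knockout cells. The mean sum was 551 ± 40.4 FPKM (SD, n = 3) in the controls and 1158 ± 213 FPKM (SD, n = 3) in the knockout, a ratio of 2.10. Of the added 607 FPKM, Anxa2 made up 40.9%, Anxa1 27.5% and Anxa3 23.6%. Anxa6 held 38.5 ± 0.91% of the sum in the controls and 18.6 ± 4.90% in the knockout, while Anxa1 held 2.28 ± 0.34% and 15.1 ± 2.98% and Anxa3 1.74 ± 0.21% and 13.3 ± 0.89% (SD, n = 3 each). Anxa2 held 30.6 ± 2.56% and 35.6 ± 3.83%.

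**Figure D3:**
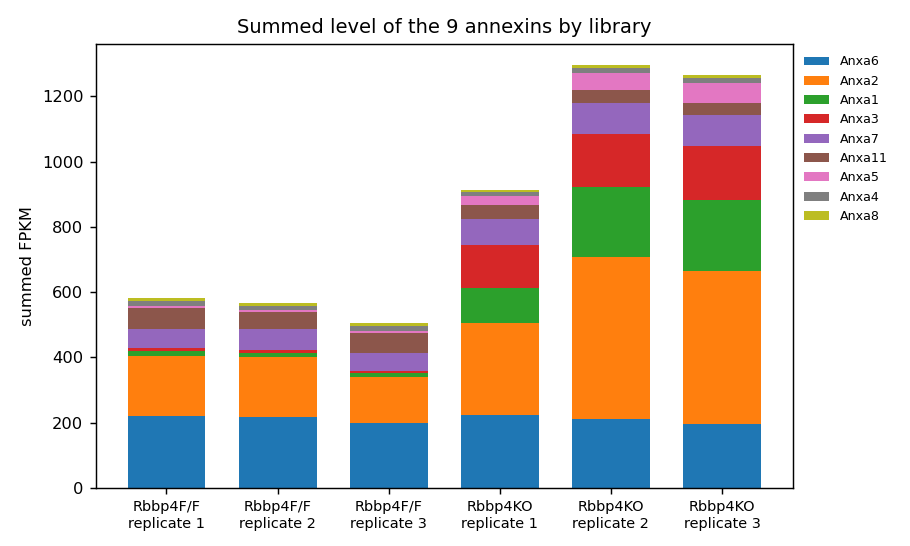
Summed FPKM of the 9 annexins in each library, stacked by gene. The knockout bars reach 913 to 1296 FPKM against 505 to 581 FPKM in the controls, and the added height is mostly Anxa2, Anxa1 and Anxa3 on an Anxa6 layer of similar height.

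The order of the levels, which FPKM allows because it divides by length, was not the same in the groups. In the controls Anxa6 lay above Anxa2, and both lay above Anxa7 and Anxa11, which overlapped each other. The other 5 members followed between 5.88 and 15.6 FPKM, where each overlapped the next in the order Anxa4, Anxa1, Anxa8, Anxa3 and Anxa5. In the knockout libraries Anxa2 came first, above Anxa6, Anxa1 and Anxa3, of which each overlapped the next. Anxa7 followed without overlap, then Anxa5 and Anxa11, which overlapped, then Anxa4 and Anxa8 without overlap. The highest mean was 28.3 times the lowest in the controls and 60.3 times in the knockout.

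The remaining annexin genes in the files were at or near 0. Anxa9 had 0.15, 0.17 and 0.22 FPKM in control cells, against 0.26, 0.34 and 0.52 FPKM in knockout cells. Anxa10 had 0.04, 0.25 and 0.30 and then 0.66, 0.19 and 0.10 FPKM, which overlapped. Anxa13 was listed at 0 in all 6 libraries. None of the 3 passed the filter of 1 FPKM in at least 3 libraries, and without a filter neither Anxa9 nor Anxa10 was called by limma.

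Genes whose proteins bind annexins, bind phospholipids as annexins do, or act in membrane repair or phosphatidylserine exposure are called partner genes here. They include 40 listed genes of C2 domain proteins. They were tested in a fit over all 13579 genes, with limma on log2(FPKM + 1) and Benjamini-Hochberg adjustment. As the lists were chosen with earlier results of these data known, their counts and p-values describe them and are no independent test. Of 122 listed partner genes 76 were tested, of which 46 rose and 9 fell in the knockout at an adjusted p under 0.05, beside 36.7% of all tested genes that rose, 22.5% that fell and 59.1% in either direction. Scaling moved this split: 37 rose and 16 fell after median-ratio scaling, and 37 and 17 after scaling to the upper quartile. Over all tested genes, 4978 rose and 3051 fell as deposited, with a median log2 difference of 0.17. The numbers were 3630 and 4205 (median −0.04) by median ratio, 3453 and 4402 (median −0.07) by upper quartile, and 6080 and 2380 (median 0.31) with equal FPKM sums. Of the 76, 7 passed the filter through the knockout libraries alone and 2 through the controls alone.

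The calcium-binding partners rose. All 9 that were tested, of 10 found in the files, rose, beside 36.7% of all tested genes. They also rose under each of the scalings tried. One of them, S100a4 (0.92, 0.89 and 0.95 FPKM in control cells, 5.27, 2.69 and 2.72 FPKM in knockout cells), passed the filter through the knockout alone, so that its direction was partly set by the filter. Exons of Gm42674 on the same strand cover 51.7% of the exonic length of S100a4, so its reads cannot be assigned with certainty. The median log2 difference of the 9 was 1.07, beside 0.17 for all tested genes. S100a10, the partner of annexin A2, rose from 121, 131.8 and 100.6 FPKM to 240.2, 290.2 and 269.8 FPKM, which is 1.18 on the log2 scale (SE 0.12, limma adjusted p = 2.95e-04). S100a11, a partner of annexins A1 and A2, rose from 700.0 ± 58.9 to 1336 ± 79.5 FPKM. S100a6, which binds annexins A2 and A11, rose from 180.2 ± 43.9 to 801 ± 109 FPKM. Ahnak, a very large scaffold protein held at the membrane by annexin A2 and S100a10, rose from 13.1 ± 2.83 to 77.4 ± 9.35 FPKM, a log2 difference of 2.49 (SE 0.17, limma adjusted p = 6.93e-05).

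The penta-EF-hand partners of annexins A7 and A11 also rose. Sri, the gene of sorcin, rose from 19.4 ± 3.07 to 38.4 ± 7.99 FPKM and Pdcd6, which encodes ALG-2, from 58.9 ± 1.95 to 94.0 ± 7.83 FPKM (log2 difference 0.66, limma adjusted p = 6.73e-04). Pef1, whose product pairs with ALG-2, rose from 32.0 ± 0.96 to 67.0 ± 4.42 FPKM. S100b, below the filter, was listed at 0 in 5 libraries and at 0.03 FPKM in knockout replicate 1.

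Set against their partners within a library, the members differed. The ratio of Anxa2 to S100a10 FPKM was 1.51, 1.40 and 1.39 in the controls and 1.18, 1.71 and 1.75 in the knockout libraries, which overlapped. The ratio of Anxa7 to Sri was 2.86, 2.97 and 3.47 in control cells and 2.74, 2.18 and 2.26 in knockout cells, lower without overlap. The ratio of Anxa7 to Pdcd6 was 0.98, 1.09 and 0.96 in the controls and 0.94, 0.97 and 0.97 in the knockout libraries, with overlap. The ratio of Anxa11 to Pdcd6 was 1.01, 0.90 and 1.03 in the controls and 0.50, 0.40 and 0.38 in the knockout libraries, without overlap. For Anxa1 and S100a11 the ratio was 0.018 ± 0.0025 and 0.134 ± 0.045 (SD, n = 3 each). These ratios of FPKM do not depend on the scaling between libraries.

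Among receptors and ligands, genes of the plasminogen system rose, and the annexin A1 receptors were at or near 0. All 7 genes tested of 14 rose, beside 36.7% of all tested genes. Of these 7, 2 passed the filter through the knockout alone, and 6 rose with median-ratio or upper-quartile scaling. Plaur, the urokinase receptor gene, rose from 65.6, 70.0 and 53.6 FPKM to 256, 309 and 300.1 FPKM (log2 difference 2.18, SE 0.12, limma adjusted p = 4.51e-05). The 2 that passed through the knockout were Plat, for tissue plasminogen activator, at 0.27 ± 0.06 and 2.07 ± 0.32 FPKM, and Plau, for urokinase, at 0.33 ± 0.19 and 3.27 ± 1.02 FPKM. Plgrkt, a plasminogen receptor gene, rose from 8.52 ± 1.18 to 14.1 ± 1.91 FPKM. Plasminogen itself (Plg) reached at most 0.04 FPKM. The formyl peptide receptor genes Fpr1 and Fpr2 reached at most 0.04 and 0.17 FPKM.

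Membrane repair genes mostly rose. Of 23 tested, 17 rose (73.9%, beside 36.7% of all tested genes) and none fell (beside 22.5%), with 2 that passed the filter through the knockout alone. With upper-quartile scaling 12 rose and 2 fell, beside 3453 and 4402 of 13555 tested genes. The median log2 difference of the 23 was 0.82 as deposited. Myof, for the ferlin myoferlin, rose from 2.13, 1.89 and 2.12 FPKM to 18.1, 32.1 and 32.5 FPKM (log2 difference 3.18, SE 0.23, limma adjusted p = 7.92e-05). Cavin1, for a coat protein of caveolae, rose from 39.8 ± 5.93 to 125.5 ± 7.58 FPKM. Chmp2b, for a subunit of the membrane-cutting ESCRT-III complex, rose from 20.6 ± 0.41 to 42.7 ± 3.21 FPKM, and Smpd1, for acid sphingomyelinase, from 6.13 ± 0.50 to 16.1 ± 0.82 FPKM. The 6 that were not called were Tsg101, Capn1, Syt7, Chmp2a, Vps4b and Vamp3, with log2 differences from −0.32 to 0.23, singled out after their values were seen.

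The genes of the list of other calcium and phospholipid binders, which carry C2 domains, were called in shares near those of all tested genes. Of 22 tested, 7 rose (31.8%, beside 36.7%) and 6 fell (27.3%, beside 22.5%), with a median log2 difference of −0.05, and with median-ratio or upper-quartile scaling 5 rose and 8 fell. In this list 2 genes passed the filter through the knockout alone and 2 through the controls alone, among the latter the copine gene Cpne9, at 3.76 ± 0.51 and 0.31 ± 0.25 FPKM. Doc2a, a gene of calcium-triggered exocytosis, fell from 8.78 ± 1.41 to 1.30 ± 0.63 FPKM. Esyt2, for a tether between endoplasmic reticulum and plasma membrane, rose from 6.66 ± 0.53 to 16.9 ± 4.34 FPKM. Cpne1 rose from 19.7 ± 1.48 to 48.8 ± 10.3 FPKM, but exons of Gm28036 on the same strand cover 83.3% of it, and antisense exons of Ino80e cover 39.4% of Doc2a, so reads of these pairs cannot be divided with certainty. Ferlin genes and Syt7, whose products also carry C2 domains, were counted with membrane repair and not here. Of those tested there, Myof and Dysf (1.34 ± 0.36 to 10.1 ± 4.45 FPKM) rose, and Syt7 was not called.

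Genes of phosphatidylserine exposure and recognition, the lipid that annexin A5 binds, were also called in shares near those of all tested genes, as deposited. Of 15 tested, 6 rose (40%, beside 36.7%) and 3 fell (20%, beside 22.5%), with a median log2 difference of 0.006. With median-ratio or upper-quartile scaling 5 rose and 7 fell, a larger share lower than over all tested genes. There, 3630 rose and 4205 fell of 13549 by median ratio, and 3453 and 4402 of 13555 by upper quartile. Axl, a receptor for phosphatidylserine-bound ligands, rose from 1.64 ± 0.17 to 8.73 ± 0.74 FPKM (log2 difference 1.88, SE 0.13, limma adjusted p = 6.83e-05), and Ano6, for a calcium-activated scramblase, from 8.88 ± 0.42 to 24.1 ± 1.63 FPKM. The flippase genes Atp11a and Tmem30b rose by 1.02 and 0.83 on the log2 scale. The 3 that fell, singled out after their values were seen, were Gas6 (−1.27), a ligand gene of these receptors, Tyro3 (−1.13) and Mfge8 (−0.36). Pros1, another ligand gene on the list, also singled out afterwards, went the other way. It rose from 3.12 ± 0.24 to 5.59 ± 1.15 FPKM (log2 difference 0.66, SE 0.16, limma adjusted p = 0.0113).

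**Figure D4:**
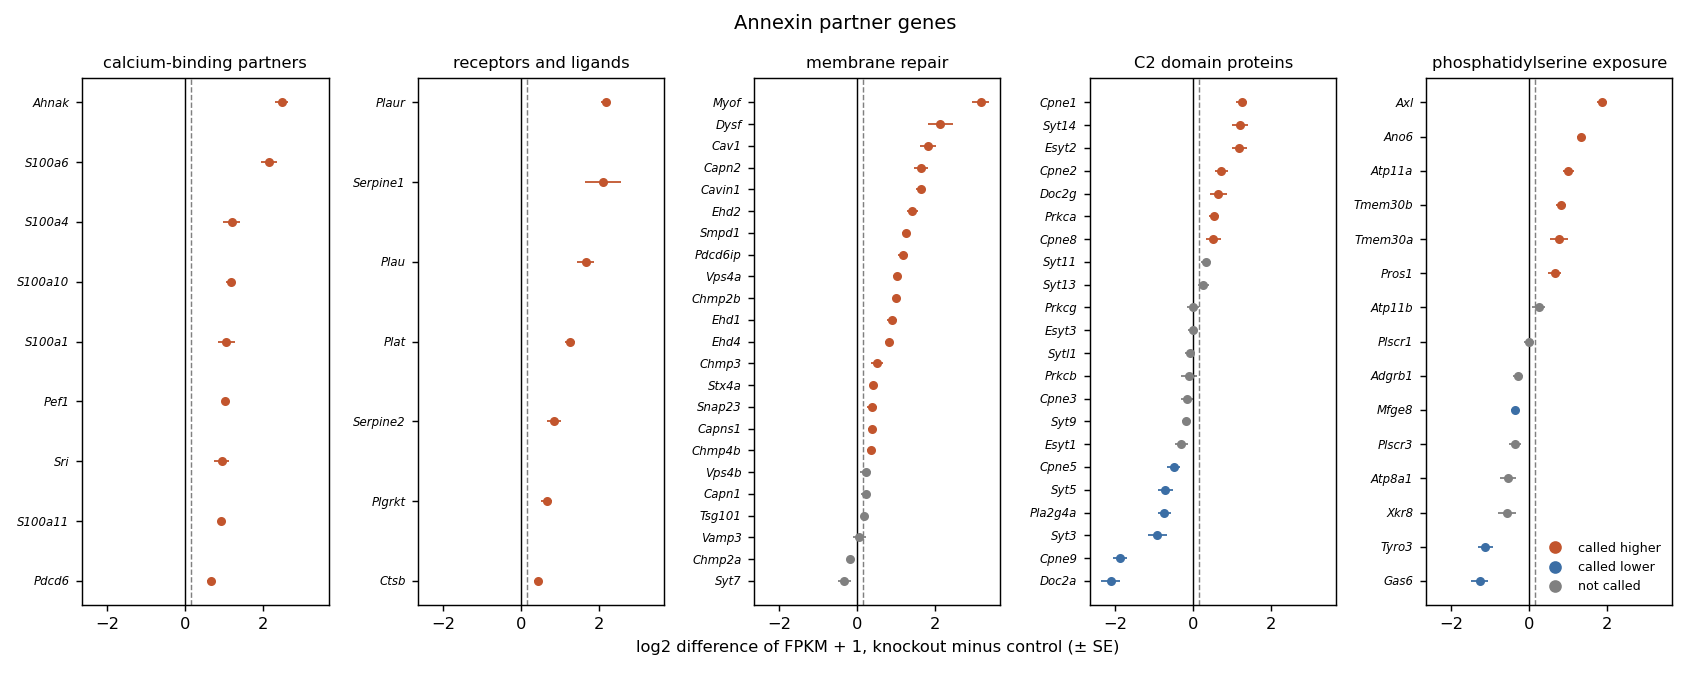
Log2 difference of FPKM + 1 (knockout minus control, ± SE) of the 76 tested partner genes in 5 lists, coloured by the limma call, with the median of all tested genes, 0.17, dashed. All points of the first and second panels lie to the right of 0, whereas the C2 domain and phosphatidylserine panels hold genes on both sides.

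The genes with the profiles most like the member with the most positive difference (Anxa3) and the member with the most negative (Anxa11) were found by Euclidean distance between log2(FPKM + 1) values, centred on the control mean, over the 6 libraries and among 12211 other protein-coding genes tested. Nearest to Anxa3 were Stmn4 (distance 0.36), Synpo2l (0.49) and Tgfb1i1 (0.57), and the nearest other annexin was Anxa1 (0.80). Nearest to Anxa11 were Pld3 (0.08), Rnf144a (0.11) and Gna12 (0.11), and the nearest other annexin was Anxa8 (0.74). With 2 groups of 3 libraries the profiles share the same contrast, and the distances are a description.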

How the data were processed

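Trizol RNA and TruSeq libraries were used for all 6 samples, per the labels' protocols. The build GRCm38.p6 and the tools RSEM, HISAT2 2.1.0, DESeq 1.26.0 and FastQC are listed without roles in the submitters' processing notes. For annotation release and strand setting: not given in the sources used here. The values the authors deposited were read as FPKM, since they hold decimals and their sums differ between libraries (697933 to 800146). Low values of genes with 1 transcript lay within 0.15 of whole steps for 85.1% to 87.7% of values once 260 to 280 bases were subtracted from the length, which gave the depth estimates, and counts were not recovered. Of 52872 rows per file, 2 without an identifier were left out.

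A gene entered the test if 3 or more libraries had 1 FPKM or more. The two-sided limma 3.58.1 test (R 4.3.3) on log2(FPKM + 1) used a mean trend and no term besides group, with Benjamini-Hochberg adjustment over the 13579 genes and a threshold of 0.05. The test was tried on simulated data. Fold changes on this scale understate those of low genes. Members and lists were chosen with earlier results of these data known. Named besides the members were direct partners, up to 4 called genes per list with the smallest p, the remaining annexins and the nearest profiles. Protein sequences were not used here. Alternatives were 3 scalings, a pseudocount of 0.1, no filter, a filter of 5 FPKM, the replicate block and each library left out.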

Additional observations from a re-analysis of the deposited data

How the results depend on the processing

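The number of annexins higher without overlap was 5 under all 3 scalings and 5 to 6 with each library left out, and the number lower was 3 with median-ratio or upper-quartile scaling, 1 with equal FPKM sums and 2 with any library left out. The share of all tested genes without overlap was not computed for these settings, and fewer libraries separate more easily. These counts therefore cannot be set beside the 66.8% of the main setting. The ratio of the summed annexin FPKM was 1.79 by median ratio, 1.74 by upper quartile and 2.35 for equal sums, and 1.98 to 2.32 with a library left out. Signs differed from the main ones for Anxa4 with median-ratio and upper-quartile scaling and for Anxa6 in 3 of 12 alternatives, and for no other member. Partner genes called lower, 9 in the fit reported, numbered 16 by median ratio, 17 by upper quartile and 4 with a filter of 5 FPKM, where 52 were tested, and 6 to 10 with a library left out, while those called higher ran from 34 to 50 over all alternatives. The partner genes named by rule kept their direction and call in every alternative in which they were tested, with adjusted p up to 0.0373 (limma, Plgrkt). Most of them were named for the smallest p in the main fit, so that outcome was largely set by their choice. With the replicate block 45 partner genes were higher and 8 lower. The replicate numbers did not pair the libraries, with correlations of deviations of −0.0012, −0.0093 and 0.049 for equal numbers, and control replicate 1 correlated best with knockout replicate 3. At the estimated depth all 9 members lie far above the level of 1 fragment. That is not so for Fpr1, at most 0.04 FPKM, or for the lowest value of Anxa10, 0.04 FPKM in control replicate 1.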
